A study of Mus musculus with 6 samples.

Results

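Transcripts of 10 genes for calcium and calmodulin dependent enzymes were followed in the mouse cerebellum. They are 7 kinase genes (Camkk2, Camk1, Camk4, Camk2a, Camk2b, Camk2d and Camk2g) and 3 genes of the phosphatase calcineurin (Ppp3ca, Ppp3cb and Ppp3r1). They were chosen by symbol, and all 10 were found among the 24421 genes of the count tables. Libraries came from 3 STIM1 knockout (KO) and 3 wild type (WT) mice, all 1 year of age. The tissue was cerebellum microdissected to the layer of Purkinje neurons plus the adjoining molecular layer, which holds glia and interneurons as well. The labels give no allele, strain, sex or Cre driver for the knockout, so the cells that lack STIM1 cannot be told from them. In bulk tissue of this kind, fewer cells of a type and less RNA per cell cannot be told apart.

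STIM1 senses calcium in the endoplasmic reticulum and opens Orai channels when the store empties. Calcium that enters the cytosol binds calmodulin, and calcium-loaded calmodulin activates both groups of enzymes studied here. CaM kinase kinase phosphorylates and activates CaM kinases I and IV, CaM kinase II forms large holoenzymes of alpha, beta, gamma and delta subunits that keep each other active by autophosphorylation, and calcineurin removes phosphates, among others from NFAT transcription factors. In Purkinje cells CaM kinase II and calcineurin are known for their part in plasticity at the parallel fibre synapse.

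The sequences printed here show how far the kinase II genes differ where their proteins are closest in function, and so how well reads of 50 bases tell them apart. They are coding bases of the principal GENCODE M21 transcripts around the autophosphorylated threonine, which is codon 287 counted from the start codon in each. Camk2b lies on chromosome 11 (5969644 to 6066362, minus strand, GRCm38), Camk2d on chromosome 3 (126596302 to 126846326, plus strand) and Camk2g on chromosome 14 (20734875 to 20794088, minus strand). Capitals mark the 24 of 63 positions at which the 3 genes are not all the same.
Camk2b: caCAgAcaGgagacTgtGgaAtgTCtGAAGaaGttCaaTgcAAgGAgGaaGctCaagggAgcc
Camk2d: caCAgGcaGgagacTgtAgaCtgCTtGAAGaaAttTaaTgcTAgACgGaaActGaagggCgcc
Camk2g: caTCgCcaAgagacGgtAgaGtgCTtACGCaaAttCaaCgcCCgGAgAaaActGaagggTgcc
Over the whole coding sequence the 4 kinase II genes were 77.2% to 79.6% identical in pairs, and the longest identical run in any pair was 32 bases, between Camk2a and Camk2b. Ppp3ca and Ppp3cb were 74.3% identical, with a longest run of 20 bases. No word of 50 bases in the transcripts of a member occurred in those of another member. Words shared with other genes were 13.0% of those of Ppp3r1, all with Wdr92, and 2.22% of those of Camk1, all with Ogg1. They were 0.710% for Camk4, 0.293% for Camk2a and 0.159% for Camk2b, and the other 5 members had none.

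The libraries held 659213 to 764839 counts in genes in KO and 645994 to 705168 in WT, and these were 1.16% to 1.22% of uniquely aligned reads in KO and 1.18% to 1.23% in WT. Stim1 had 4, 3 and 2 counts in KO replicates 1 to 3 and 7, 21 and 3 in WT replicates 1 to 3, too few to check the genotype. The strand that was counted is not given in the sources used here, so counts under a gene's name may not be its mRNA. Genes that share at least 50 exon bases with a listed gene on the other strand held 68.8% of the counts of matched genes on 15.5% of their exon bases. They had 30.2 counts per kilobase of exon, against 2.51 for the other matched genes. Pet100 shares 941 exon bases with the Purkinje marker Pcp2 on the other strand. It had 16179, 24449 and 19144 counts in KO replicates 1 to 3, where Pcp2 had 71, 60 and 70. The pair of Zic1 (155, 118 and 181 counts in KO) and Zic4 (3, 2 and 3) had no such excess of the partner. Which strand such reads came from was not tested. The 10 members together had 255 to 394 counts per KO library and 316 to 379 per WT library, so counting error was wide for each of them. Purkinje cell markers (10 genes, all read) summed to 2167 to 3047 CPM (counts scaled to the size of each library's gene total with TMM factors) in KO and 3055 to 3689 CPM in WT. Astrocyte and Bergmann glia markers (8 genes, all read) summed to 619.8 to 798.0 CPM in KO and 853.5 to 1034 CPM in WT. For both lists the ranges of the sums were apart, but this rested on single genes. Leaving out any 1 of 4 Purkinje markers, Itpr1 among them, made the ranges overlap. Without Itpr1, which held 49.97% of the summed CPM, they were 1038 to 1727 CPM in KO and 1520 to 1763 CPM in WT. Without S100b the astrocyte sums were 545.3 to 640.2 CPM in KO and 618.3 to 833.2 CPM in WT. Of the Purkinje markers 9 were tested, 7 with an estimate below 0 and 2 above, and 3 were lower without overlap. Of the astrocyte markers 8 were tested, 6 with an estimate below 0 and 2 above, and 1 was lower without overlap. Over all 5320 genes tested, 49.8% had an estimate below 0 and 6.13% were lower without overlap. No marker in either list passed edgeR's test at an adjusted p under 0.05. Granule cell markers (9 genes) summed to 441.0 to 503.0 CPM in KO and 412.1 to 501.4 CPM in WT, and molecular layer interneuron markers (6 genes) to 194.3 to 238.4 CPM in KO and 232.9 to 253.5 CPM in WT. Oligodendrocyte markers (7 genes, with Opalin at 0 throughout) summed to 90.9 to 125.7 CPM in KO and 104.9 to 121.1 CPM in WT, and microglia markers (6 genes) to 1.58 to 21.6 CPM in KO and 11.3 to 49.5 CPM in WT.

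None of the kinase or calcineurin genes passed the comparison of KO with WT. Of the 10, 7 had enough counts for edgeR's quasi-likelihood test, and Camk2d, Camk2g and Camkk2 did not. At a Benjamini-Hochberg adjusted p under 0.05 the test called 0 of the 7, where it called 0% of all 5320 genes tested. DESeq2 and limma-voom also called 0. At an unadjusted p under 0.05 edgeR gave 1 of the 7, Ppp3cb, beside 4.62% of all genes. Limma-voom gave 1 of the 7, beside 234 of all 5320 genes, and DESeq2 gave 0, beside 96 of 5320. KO and WT libraries did not overlap for 1 of the 7, Camk2a, which was lower in KO, beside 6.13% of all genes lower without overlap. None was higher in KO without overlap, beside 4.61% of all genes. Of the 7, 4 had a log2 fold change below 0 and 3 above, with a median of -0.11, and over all genes tested 49.8% lay below 0 with a median of 0.0017.

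**Figure D1:**
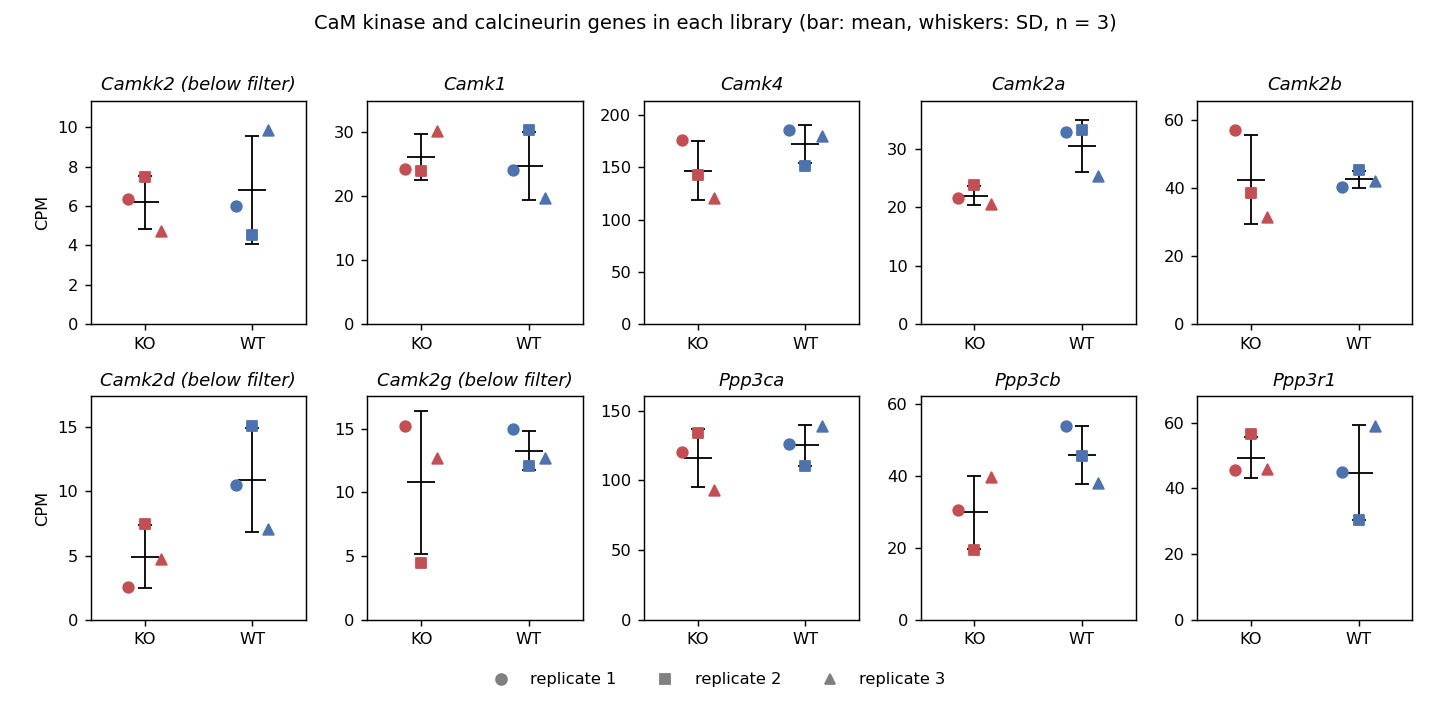
Each panel plots CPM (y axis, from 0) of 1 gene in the 3 KO and the 3 WT libraries, with symbols for replicate numbers and a bar with whiskers for the mean and SD. Camk2a is the only panel of a tested gene in which all KO points (20.6 to 23.8 CPM) lie below all WT points (25.4 to 33.3 CPM), and the 3 genes marked as below the filter were left out of the test.

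Camkk2 encodes CaM kinase kinase beta, which switches on CaM kinases I and IV and also the energy sensor AMPK. It was barely read, with 5, 5 and 3 counts in KO replicates 1 to 3 and 4, 3 and 7 counts in WT replicates 1 to 3. The means were 6.18 ± 1.36 CPM in KO and 6.80 ± 2.75 CPM in WT (SD, n = 3 each). The groups overlapped fully, and an exact two-sided permutation test of log2(CPM + 1) gave p = 1, where 3 against 3 libraries cannot go below 0.1. A count of 0 would allow up to 3 counts, or 3.81 to 4.75 CPM, so these values lie close to the limit of detection.

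Camk1 encodes CaM kinase I, a target of CaM kinase kinase with a role in the growth of neurites. It had 24.1, 23.8 and 30.1 CPM in KO replicates 1 to 3 and 24.0, 30.2 and 19.7 CPM in WT replicates 1 to 3. The highest KO and the highest WT library were alike, and the ranges overlapped. The log2 fold change was 0.075 (SE 0.31, 95% interval -0.57 to 0.72, edgeR adjusted p = 0.997). Camk1 lies on the minus strand of chromosome 6 (113334124 to 113343984, GRCm38) and shares 232 exon bases at its 3′ end with Ogg1, a DNA repair glycosylase gene on the plus strand (113326972 to 113335068). Ogg1 had 99, 126 and 99 counts in KO and 90, 100 and 83 in WT, against 19, 16 and 19 in KO and 16, 20 and 14 in WT for Camk1. Per kilobase of exon Ogg1 was therefore far above Camk1 in every library. Since the strand counted is not known, reads of these 2 genes in the shared bases cannot be told apart. Ogg1 had a log2 fold change of 0.22 (SE 0.19, edgeR adjusted p = 0.987).

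Camk4 encodes CaM kinase IV, a nuclear kinase that phosphorylates CREB and is abundant in cerebellar neurons. It had the most counts of the 10 genes, with 176.6, 143.0 and 120.3 CPM in KO replicates 1 to 3 and 185.8, 151.2 and 180.3 CPM in WT replicates 1 to 3. KO replicate 3 was the lowest library, while KO replicate 1 lay above WT replicate 2, so the groups overlapped. The mean was 146.6 ± 28.3 CPM in KO and 172.4 ± 18.6 CPM in WT (SD, n = 3 each). On the log2 scale KO over WT was -0.23 (SE 0.18, 95% interval -0.60 to 0.15, edgeR adjusted p = 0.987). It shares 72 exon bases on the other strand with 2310026I22Rik, a noncoding gene that was not analysed here.

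Camk2a encodes the alpha subunit of CaM kinase II, which in the cerebellum is found mainly in Purkinje cells. It had 21.6, 23.8 and 20.6 CPM in KO replicates 1 to 3 and 33.0, 33.3 and 25.4 CPM in WT replicates 1 to 3. All KO libraries lay below all WT libraries, with a gap between KO replicate 2 and WT replicate 3 of about 1 count, and the summed Purkinje markers were lower in KO too, whose part in this was not tested. The mean was 22.0 ± 1.67 CPM in KO and 30.5 ± 4.49 CPM in WT (SD, n = 3 each). KO over WT stood at a log2 fold change of -0.47 (SE 0.29, 95% interval -1.08 to 0.15, edgeR adjusted p = 0.987). At a mean of 18 counts, counting alone gives a coefficient of variation of 23.6%, more than the 7.57% seen among KO libraries and the 14.7% among WT libraries.

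Camk2b, the beta subunit that anchors the holoenzyme to actin, was read more than Camk2a. It had 57.2, 38.7 and 31.7 CPM in KO replicates 1 to 3 and 40.5, 45.4 and 42.3 CPM in WT replicates 1 to 3. KO replicate 1 was the highest and KO replicate 3 the lowest of all libraries, so the WT values lay inside the KO range. The fitted log2 fold change was 0.013 (SE 0.27, 95% interval -0.55 to 0.57, edgeR adjusted p = 0.999). Without KO replicate 1 it was -0.28, also with no call.

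Camk2g and Camk2d, for the gamma and delta subunits that are expressed in many tissues, stayed below the filter on counts. Camk2g had 12, 3 and 8 counts in KO replicates 1 to 3 and 10, 8 and 9 in WT replicates 1 to 3, with means of 10.8 ± 5.63 CPM in KO and 13.3 ± 1.53 CPM in WT (SD, n = 3 each; exact permutation p = 0.8). KO replicate 2 alone stood low. Camk2d had 2, 5 and 3 counts in KO replicates 1 to 3 and 7, 10 and 5 in WT replicates 1 to 3, with means of 4.91 ± 2.46 CPM in KO and 10.9 ± 4.06 CPM in WT (SD, n = 3 each; exact permutation p = 0.2). KO replicate 2 lay above WT replicate 3, so the groups overlapped. The log2 ratio of the mean CPM plus 1 was -1.01 for Camk2d and -0.27 for Camk2g. In the authors' deposited edgeR table, where the ratio is WT over KO, Camk2d stood at 1.12 on the log2 scale (unadjusted p = 0.0741). In the authors' deposited DESeq table its KO over WT fold was 0.464 (unadjusted p = 0.0799).

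Ppp3ca encodes the A alpha catalytic subunit of calcineurin, the main form in neurons. It had 120.7, 134.1 and 93.4 CPM in KO replicates 1 to 3 and 125.9, 110.4 and 139.4 CPM in WT replicates 1 to 3. KO replicate 3 was the lowest library and the others were interleaved. The log2 fold change was -0.11 (SE 0.19, 95% interval -0.51 to 0.29, edgeR adjusted p = 0.997), and it was 0.017 without KO replicate 3. Decreases larger than the lower bound of -0.51 lie outside the interval.

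Ppp3cb, the A beta catalytic subunit, had the lowest p among the 7 tested members. It had 30.5, 19.4 and 39.6 CPM in KO replicates 1 to 3 and 53.9, 45.4 and 38.0 CPM in WT replicates 1 to 3. KO replicate 3 lay just above WT replicate 3, and the other KO libraries lay below all WT libraries. The mean was 29.8 ± 10.1 CPM in KO and 45.8 ± 7.97 CPM in WT (SD, n = 3 each). On the log2 scale KO over WT was -0.62 (SE 0.29, 95% interval -1.23 to -0.0089), with an unadjusted p of 0.0471 that ranked 233 among 5320 genes and an edgeR adjusted p of 0.987. Ppp3cb stood at 0.597 on the log2 scale, WT over KO, in the authors' deposited edgeR table (unadjusted p = 0.0564). Its KO over WT fold was 0.666 in the authors' deposited DESeq table (unadjusted p = 0.0599). Without KO replicate 2 the log2 fold change was -0.40, and without KO replicate 3 it was -0.86, again with no call. The unadjusted p stayed under 0.05 in 9 of 15 alternative settings. Ppp3cb lies on chromosome 14 (20499364 to 20546573, minus strand, GRCm38).

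Ppp3r1 encodes the B regulatory subunit, a calcium-binding protein that the catalytic subunits need. It had 45.7, 56.6 and 45.9 CPM in KO replicates 1 to 3 and 45.0, 30.2 and 59.2 CPM in WT replicates 1 to 3. All KO values lay within the WT range. KO over WT stood at a log2 fold change of 0.13 (SE 0.27, 95% interval -0.43 to 0.70, edgeR adjusted p = 0.997). It shares 462 exon bases with Wdr92 on the same strand, where reads of the 2 genes cannot be told apart. Wdr92 had 36, 23 and 21 counts in KO replicates 1 to 3 and 35, 19 and 27 in WT replicates 1 to 3.

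Levels were compared between the genes as CPM per kilobase of exon, over all 6 libraries. As the strand counted is not known, their order may not be that of the mRNAs. Camk4 stood first at 49.0 ± 7.87 CPM per kilobase (SD, n = 6) and above every other gene in every library. Ppp3r1 followed at 14.6 ± 3.18 and Ppp3ca at 12.1 ± 1.68 CPM per kilobase, whose ranges overlapped, with Ppp3r1 higher in 5 of 6 libraries. Camk2b (4.67 ± 0.928), Ppp3cb (4.29 ± 1.36), Camk1 (4.24 ± 0.685) and Camk2a (3.52 ± 0.746 CPM per kilobase) came next, and each overlapped its neighbour in that order. Camk2g lay below them at 1.88 ± 0.613, Camkk2 at 0.594 ± 0.180 and Camk2d at 0.351 ± 0.197 CPM per kilobase. Between Ppp3ca and Camk2b, and between Camk2a and Camk2g, the ranges did not overlap. The order depends on the length used: per kilobase of the principal transcript Camk4 (58.7) and Ppp3ca (54.99) were close, followed by Camk1 (16.9) and Ppp3r1 (16.5 CPM per kilobase). The other 6 genes kept their order among themselves.

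**Figure D2:**
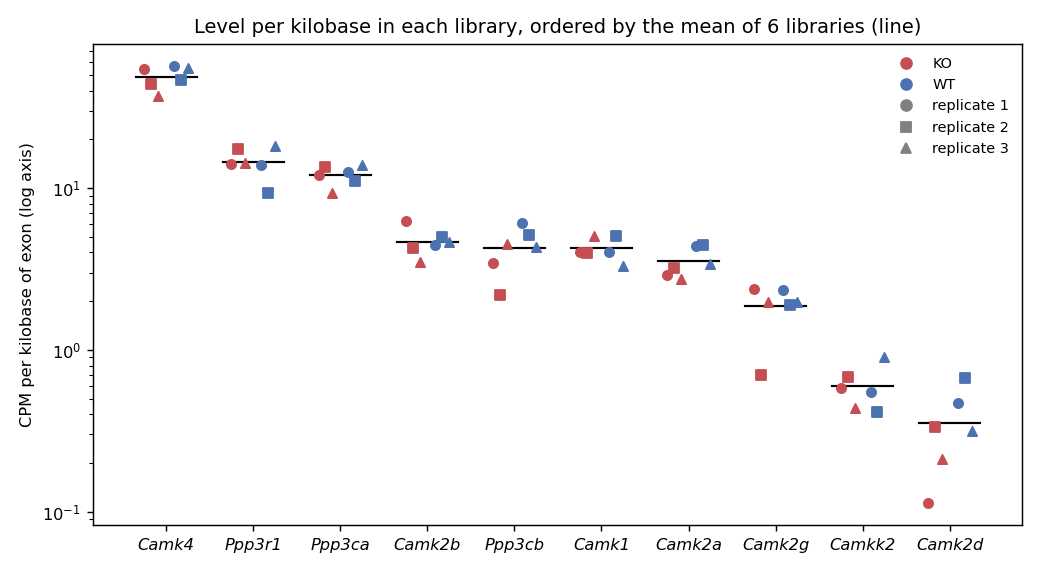
CPM per kilobase of exon (log axis) is shown for each gene in the 3 KO and the 3 WT libraries, with the mean of all 6 as a line. Camk4 stands apart at the top (36.9 to 57.0), and Camkk2 and Camk2d lie at the bottom, below 1 CPM per kilobase in every library.

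Shares within each enzyme family were described from the same values. They are shares of counts under each gene's name, and as the strand counted is not known they may not be shares of mRNA. Camk2b held the largest share of summed CPM per kilobase of the 4 kinase II genes, 53.8%, 50.1% and 41.2% in KO replicates 1 to 3 and 38.0%, 41.5% and 44.9% in WT replicates 1 to 3. The Camk2a share was 24.8%, 37.7% and 32.8% in KO and 37.9%, 37.2% and 32.9% in WT, so it was low in KO replicate 1 alone. Camk2g averaged 17.4% ± 8.07 in KO and 18.3% ± 2.28 in WT, and Camk2d 2.46% ± 1.47 in KO and 4.21% ± 1.30 in WT (SD, n = 3 each). Of the catalytic subunits of calcineurin, Ppp3ca held 77.1% ± 9.20 in KO and 70.6% ± 4.999 in WT (SD, n = 3 each), and Ppp3cb the rest. KO and WT libraries overlapped for each of these shares. Per kilobase of the principal transcript the shares were 55.5% ± 6.64 in KO and 47.7% ± 3.70 in WT for Camk2b, and 86.7% ± 5.97 in KO and 82.6% ± 3.41 in WT for Ppp3ca.

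**Figure D3:**
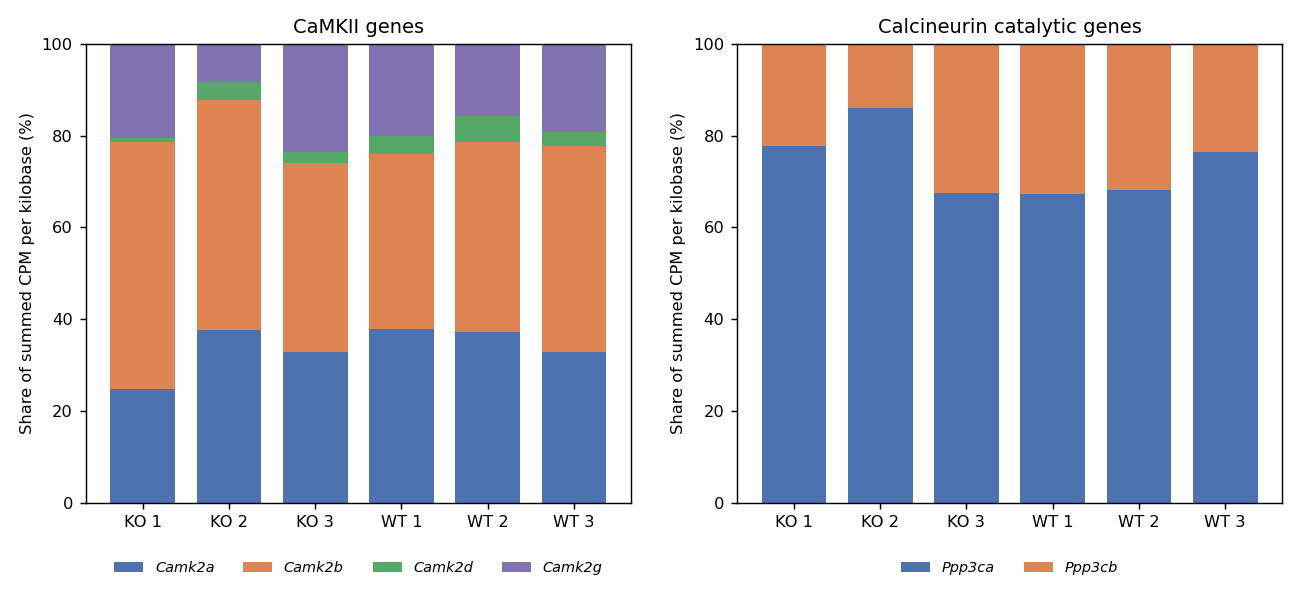
Stacked bars give each gene's share (%) of the summed CPM per kilobase of exon of its family, in KO libraries on the left of each panel and WT libraries on the right. Camk2b and Camk2a make up most of the kinase II bars, and Ppp3ca makes up 67.6% to 85.9% of the calcineurin bars in KO and 67.3% to 76.4% in WT.

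The library with the highest or lowest value was not the same for all members. Counting error alone can set this order for members of few counts, so it cannot show whether they move together. KO replicate 3 was the lowest library for 4 of the 10 (Camk2a, Camk2b, Camk4 and Ppp3ca) and the highest for none. WT replicates 2 and 3 were each the highest for 3 members. The summed level of the 10 genes was 500.4, 458.9 and 403.7 CPM in KO replicates 1 to 3 and 539.5, 477.9 and 533.8 CPM in WT replicates 1 to 3, so the groups overlapped. The spread among WT libraries was below the counting error alone for 7 of 10 members, and that among KO libraries for 4 of 10. By the mean absolute difference of log2(CPM + 1) deviations over the 6 libraries, the genes most like Camk4 were Gabbr1 (0.064), Trappc12 (0.072) and Ddx3x (0.074), where the median tested gene differed by 0.30. Those most like Ppp3ca were Zfp9 (0.037), Sqle (0.046) and Tmem150cos (0.056), where the median tested gene differed by 0.28. Both rankings passed over genes with only a predicted, clone or locus symbol, so a nearer gene of that kind is possible.

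Genes around the 10 enzymes had estimates below 0 more often than above, but none passed the test. Of 48 further pathway genes 23 were tested, and 0 passed (edgeR, adjusted p under 0.05), as with DESeq2 and limma-voom. Of the 23, 19 had log2 fold changes below 0 and 4 above, with a median of -0.29, beside 49.8% below 0 and a median of 0.0017 over all genes. The lists were chosen with earlier results of these data known, so these counts are not independent of those results. With an unadjusted p under 0.05 stood 4 of the 23, all lower in KO. Beside them, 4.62% of all 5320 genes had such a p, 162 lower and 84 higher. Lower without overlap of the groups were 5 of the 23, beside 6.13% of all genes. The median of the pathway genes was -0.17 without WT replicate 2, -0.19 without WT replicate 1 and -0.35 without KO replicate 1. When no filter was applied it was -0.091 over the 46 genes read, 29 of them below 0. The summed Purkinje and astrocyte markers were lower in KO as well, though that separation rested on single genes as given above, and their part in these values was not tested.

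Calmodulin genes and small proteins that bind calmodulin had 5 of 6 members tested. The estimate was below 0 for 4 and above 0 for 1, and the median was -0.11 on the log2 scale. Calm2 and Calm3, which encode calmodulin, had log2 fold changes of -0.11 (SE 0.18) and -0.11 (SE 0.24), with overlapping groups. Pcp4, a Purkinje cell protein that speeds the exchange of calcium on calmodulin, had 120.7, 105.8 and 136.2 CPM in KO and 107.9, 192.1 and 180.3 CPM in WT, a log2 fold change of -0.41 (SE 0.21, edgeR adjusted p = 0.987). WT replicate 1 lay among the KO libraries.

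Other CaM kinases and kinase II inhibitors were mostly too low to test, with 4 of 11 tested, 3 with an estimate below 0 and 1 above (median -0.15 on the log2 scale), and Pnck at 0 counts in every library. Camk2n1, an inhibitor protein of CaM kinase II, had 11, 11 and 11 counts in KO replicates 1 to 3 and 26, 14 and 15 in WT replicates 1 to 3, which do not overlap. Its log2 fold change was -0.77 (SE 0.36, unadjusted p = 0.0463, edgeR adjusted p = 0.987). Eef2k, the calmodulin-dependent kinase of elongation factor eEF2, had -0.21 (SE 0.35) and overlapping groups.

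Calcineurin's other subunits, regulators and anchors had 4 of 11 members tested, 3 with an estimate below 0 and 1 above, and a log2 median of -0.20. Fkbp1a, the immunophilin through which the drug tacrolimus inhibits calcineurin, had 25.4, 31.3 and 28.5 CPM in KO replicates 1 to 3 and 45.0, 62.0 and 32.4 CPM in WT replicates 1 to 3. The groups did not overlap, though KO replicate 2 and WT replicate 3 were close. The log2 fold change was -0.71 (SE 0.29, unadjusted p = 0.0252, edgeR adjusted p = 0.987). Ppia, which binds cyclosporin, had -0.39 (SE 0.37) with overlapping groups. Ppp3r2, a testis form of the B subunit, had 0 counts in every library, and Rcan1, a calcineurin inhibitor that NFAT induces, had 4, 5 and 4 counts in KO and 7, 5 and 4 in WT.

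Targets of the kinases and of calcineurin had 10 of 20 members tested, 9 with an estimate below 0 and 1 above, and a log2 median of -0.31. The list's 4 NFAT genes, whose products calcineurin activates, were below the filter, with at most 5 counts in a library. Dlg4, for the postsynaptic scaffold PSD-95, had 52.1, 43.2 and 44.3 CPM in KO replicates 1 to 3 and 88.4, 72.6 and 69.0 CPM in WT replicates 1 to 3. All KO libraries lay below all WT libraries, with a log2 fold change of -0.71 (SE 0.22, unadjusted p = 0.00523, edgeR adjusted p = 0.916). Gria1, an AMPA receptor subunit that CaM kinase II phosphorylates, averaged 299.0 ± 21.2 CPM in KO and 367.1 ± 45.1 CPM in WT (SD, n = 3 each). KO and WT did not overlap, and its log2 fold change was -0.29 (SE 0.14, edgeR adjusted p = 0.987). Creb1, whose product CaM kinase IV phosphorylates, had -0.14 (SE 0.24) with overlapping groups.

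**Figure D4:**
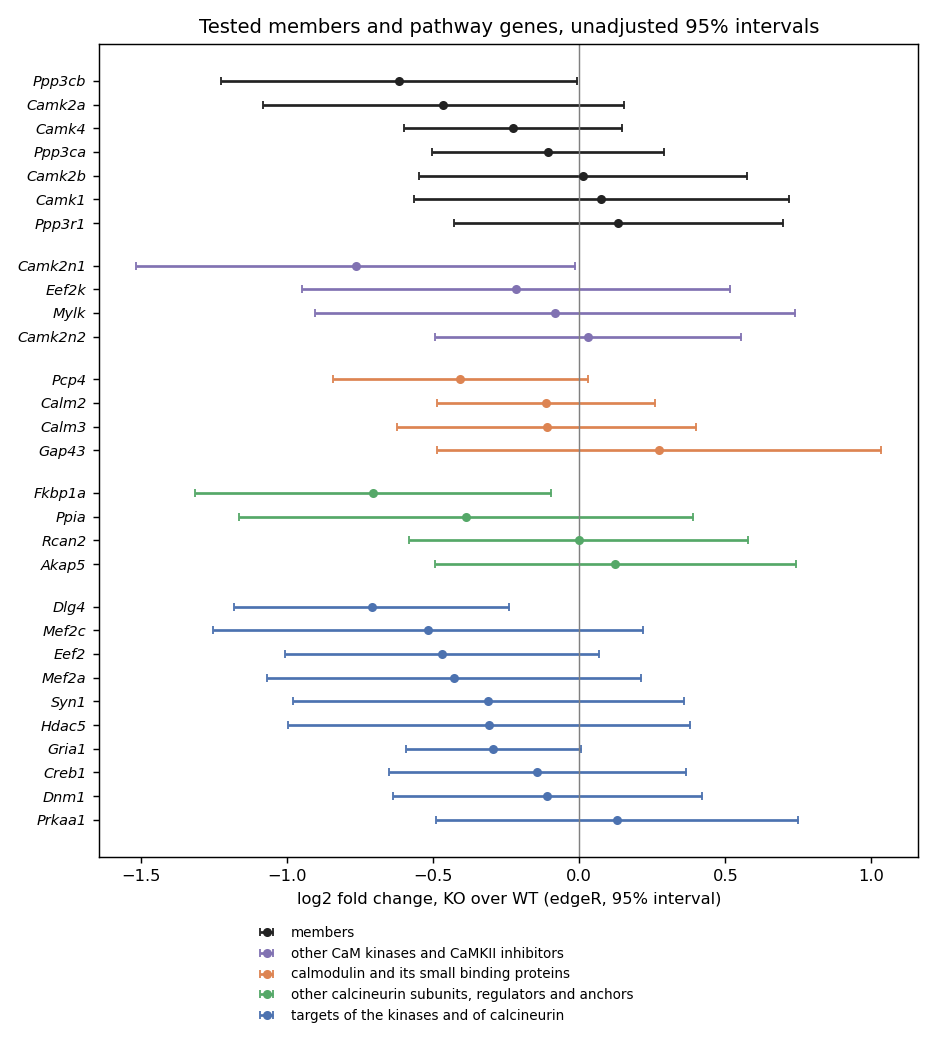
Log2 fold changes of KO over WT from edgeR are drawn as points with unadjusted 95% intervals for the 7 tested members and all but 1 of the 23 tested pathway genes, in a colour per list. Most intervals cross 0, and those that do not (Ppp3cb, Camk2n1, Fkbp1a and Dlg4) belong to genes whose adjusted p was 0.916 or 0.987.

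**Figure D5:**
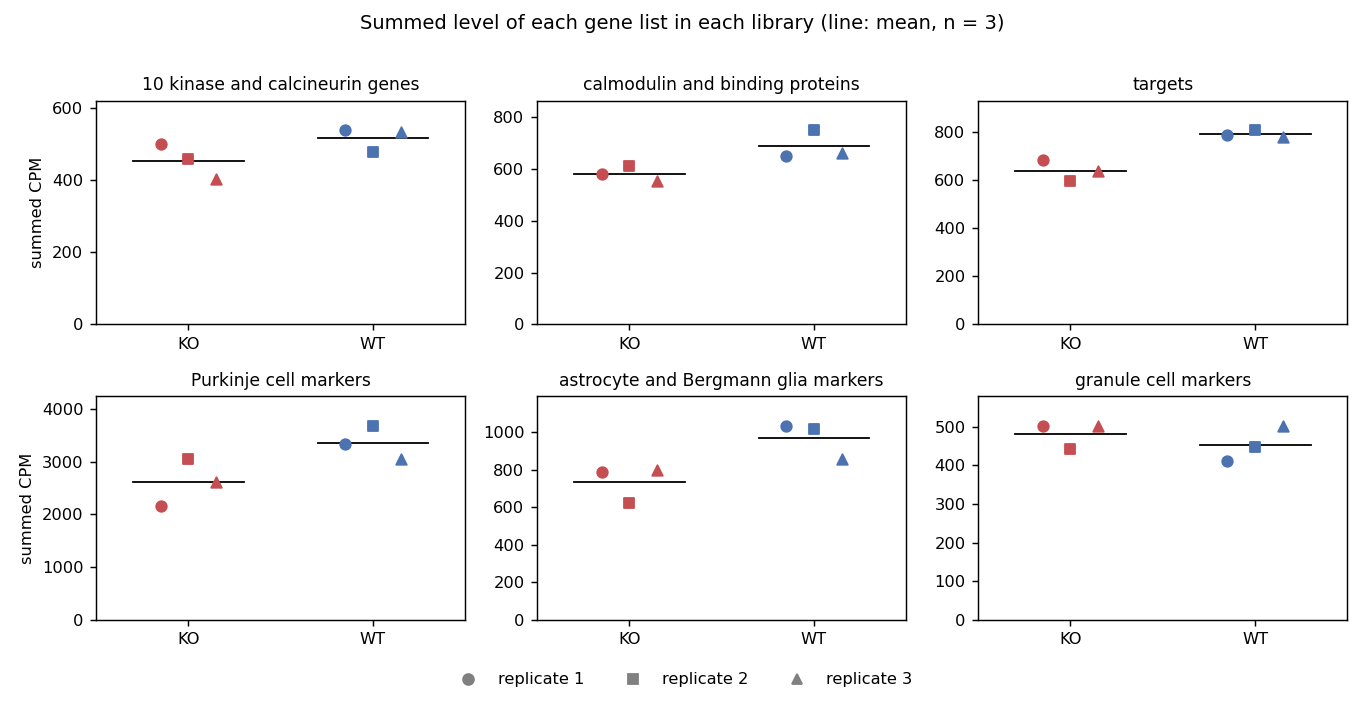
Summed CPM (y axis, from 0) of 6 gene lists is plotted for the 3 KO and the 3 WT libraries, with the mean as a line. The 10 kinase and calcineurin genes overlap between KO and WT, whereas calmodulin with its binding proteins (554.1 to 612.3 CPM in KO, 648.9 to 751.6 CPM in WT) and the targets (595.9 to 685.9 CPM in KO, 780.2 to 809.1 CPM in WT) do not. The sums of Purkinje and astrocyte markers are apart too, but overlap when Itpr1 or S100b is left out. The calmodulin sum overlaps when either of 2 of its 6 genes is left out. The target sum, of which Gria1 holds 46.5%, stays apart whichever 1 of its 20 genes is left out. This is description only, as the lists were chosen with earlier results of these data known and sums of other genes were not set beside them.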

How the data were processed

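Per the labels' protocols, libraries were made from TRIzol RNA with a TruSeq mRNA kit and read as single 50 base reads. The submitters' processing notes name TopHat, HTSeq 0.9.1, DESeq, edgeR and the build GRCm38 (mm10). The sources used here give neither strand setting nor counted annotation. The authors deposited whole-number counts per gene symbol for each library. HTSeq rows that name no gene were left out, among them 98.8% of uniquely aligned reads assigned to no gene. The authors' deposited tables give mean normalised signal per genotype, a fold ratio (KO over WT), a log2 ratio (WT over KO) and p-values, used for description only.

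CPM and tests used all 6 libraries with TMM factors and edgeR 4.0.16 (glmQLFit, glmQLFTest, filterByExpr with a minimum count of 10, 5320 genes tested) in R 4.3.3. Benjamini-Hochberg adjustment ran over all tested genes. Genes below the filter had an exact permutation test of log2(CPM + 1). DESeq2 1.42.0 and limma 3.58.1 (voom) were alternatives. The standard error is the one implied by the F statistic. The tests were tested on simulated data. Intervals are unadjusted, and the limit for a count of 0 (3 counts) covers counting error only.

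Exons, positions and coding sequences come from GENCODE M21 (GRCm38), which matched 95.7% of symbols. Members and lists were chosen with earlier results of these data known. The named genes are the members, their overlapping genes, the 2 genes of lowest p per list and the genes most like Camk4 and Ppp3ca. The other list genes given, and Pet100 and Zic4, were chosen after their values were seen. Some list genes are not reported here by name. Replicates are biological per the labels' series design. The labels name no litter, batch or day shared by libraries of equal number, and the deviations of these did not all correlate above 0.1. The main test therefore did not take the numbers as pairs, though each library correlated best with the one of its own number. A pairing that the main test leaves out is thus possible, and a replicate block was run as an alternative.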

Additional observations from a re-analysis of the deposited data

How the results depend on the processing

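The count of genes called was 0 in all settings except no filter on low counts (6), without WT replicate 3 (1) and without the third libraries of both genotypes (1), and the cause was not tested. For the members and the other pathway genes it was 0 in every setting run. Genes with an unadjusted p under 0.05 numbered 246 (84 higher and 162 lower in KO), against 638 with no filter and 96 with DESeq2, and the split was 42 higher and 198 lower with all uniquely aligned reads as library size. The settings were RLE factors, all uniquely aligned reads as library size, 2 other filters, DESeq2, limma-voom, a replicate block, leaving out libraries and, chosen after the data were examined, genes without an opposite-strand partner alone. Leaving single genes out of the list sums was likewise added after the data were examined. Camk2a, Camk2d, Camk4 and Ppp3cb stayed below 0 in every setting run for them, from -0.59 to -0.40, -1.36 to -0.72, -0.39 to -0.080 and -0.98 to -0.40. Others changed sign around 0. Leaving out single libraries, the value ranged from -0.072 to 0.25 for Camk1, -0.28 to 0.17 for Camk2b, -0.58 to 0.063 for Camk2g, -0.31 to 0.19 for Camkk2, -0.23 to 0.017 for Ppp3ca and -0.077 to 0.38 for Ppp3r1. Without the third libraries of both genotypes it was -0.18 for Camk1, 0.33 for Camkk2 and 0.10 for Ppp3ca. Camk2b was -0.032 with all uniquely aligned reads, -0.025 with limma-voom and -0.014 with the replicate block. The replicate block called 0 genes. Deviations of libraries with equal numbers correlated at 0.143, 0.0795 and 0.122 across tested genes, and each library correlated best with the one of its own number. The chi-square per degree of freedom between counts of 2 libraries was 3.03, 2.30 and 2.49 for KO and WT of equal number. It was 3.16 or more for every other pair, pairs within a genotype among them. The 3 members below the filter have no value under the other filters, DESeq2, limma-voom or the block. The small share of reads counted in genes limits all values: the tested members had 17.3 to 110.5 counts per library on average.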
